A study of Mus musculus with 139 samples.

Results

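Outer hair cells (OHCs) from the base of the mouse cochlea were set against inner hair cells (IHCs) from the same region. The 8 columns labelled as basal OHCs and the 19 labelled as basal IHCs were taken, which is 27 of the 139 cells in the series, each cell deposited as a sample of its own. The study profiled single hair cells from the apex, middle and base of the cochlea at postnatal day 14 to 16. Its design text names a comparison of hair cells between regions of the cochlea. Both groups share that age and tissue, and no label gives a strain, genotype, treatment, sex or animal. Because no animal is named, the 8 OHCs count as 1 sample and the 19 IHCs as 1 sample. No test between them was possible, and the values below describe these 27 cells. Cells are numbered OHC 1 to 8 and IHC 1 to 19 in the order of deposit.

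OHCs are the amplifiers of the cochlea. Their lateral wall is packed with the motor protein prestin, which shortens and lengthens the cell as its voltage changes. IHCs pass the sound signal to the auditory nerve through ribbon synapses, where otoferlin drives the calcium-triggered release of glutamate. Hair cells at the base respond to high sound frequencies, and basal OHCs are known as the hair cells most easily lost to noise, ageing and ototoxic drugs.

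Depth differed between the groups. The basal OHCs held 28574809 counts in all, with 134269 in the lowest cell, a median of 2522426 and 8831447 in the highest. The basal IHCs held 136644165 counts, with 2827490 in the lowest cell, a median of 6842128 and 12064320 in the highest. OHC 3 alone supplied 30.9% of the OHC counts and was the deepest of the 8, so a pooled OHC level leans on it. Detected genes ran from 1080 to 10187 per OHC, with a median of 7093, and from 5342 to 14821 per IHC, with a median of 7616. In OHC 1, the shallowest, a single count is worth 10.6 CPM, the unit of level used here (counts scaled to a library total of 1e6 counts).

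Some cells stood apart. OHC 1 and OHC 2 had 16.9% and 14.8% of their counts on mitochondrial genes, against 1.06% to 4.98% in the other 6 OHCs. They also had at least 26.1% on a single annotated line, CT010467.1, against at most 1.43% in the other 6. IHC 2 had 16.0% and 28.6% on these. OHC 1, OHC 2 and IHC 1 to 7 carry title numbers above 100, and the other 18 cells carry numbers up to 100. What this number marks is not stated. Cells of 1 type were not much more alike than cells of different types: the median Pearson correlation of log2(CPM + 1) across genes was 0.371 over the 28 OHC pairs, 0.388 over the 171 IHC pairs and 0.339 over the 152 mixed pairs.

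Among the genes that passed a level filter most pooled differences lay on the IHC side, and most of those higher in OHCs were carried by a single OHC. Levels are pooled counts scaled by TMM and given as CPM, and a difference is log2 of (OHC CPM + 1) over (IHC CPM + 1), so a positive value means higher in basal OHCs. Of the 9467 genes with at least 5 CPM in 1 of the groups, 2247 (23.7%) were at least 2-fold higher in basal OHCs and 6013 (63.5%) at least 2-fold lower. The median difference over these genes was -2.65. Scaling moved it: it was -2.79 with no TMM factor and -2.03 with DESeq2 size factors. The summary of the cells moved it too. By the median of the cells it was -0.27, with 497 genes higher and 579 lower, over the genes whose cell medians passed the filter. With equal weight per cell it was -2.30, with 2730 genes higher and 5791 lower. The level filter mattered as well, since a gene passes it through whichever group is high. With no filter the median was -0.022, with 2723 genes higher and 8343 lower, and with a 20 CPM filter it was -2.01. The size of the excess on the IHC side thus depended on the filter, the scaling and how the cells were summarised. Gene lists below are read against the pooled shares of 23.7% and 63.5% and the pooled median of -2.65, not against 0.

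When each of the 27 cells was left out in turn, 505 genes (5.33%) stayed 2-fold higher in OHCs throughout and 4227 (44.6%) stayed 2-fold lower. These are called the retained genes below. No gene was higher in every basal OHC than in every basal IHC (0%), and 2 genes (0.0211%), Otof and Atp2a3, were lower in every basal OHC than in every basal IHC. A gene with no read in OHC 1, which had 1080 detected genes, could not be higher in every OHC but could be lower. The 2 counts are thus not like for like.

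The genes higher in OHCs rested on few cells. For the median gene among the 2247, the OHC with the most counts of that gene held 98.1% of its OHC counts. In 1460 of them 1 OHC held 90% or more, and in 980 (43.6%) it held 99% or more. Without OHC 3 the 2-fold excess was gone in 417 genes (18.6%), and 241 of these became at least 2-fold lower. OHC 3 was not alone in this: leaving out OHC 2 ended the call in 512 genes, OHC 8 in 350 and OHC 6 in 205, and 1742 genes (77.5%) lost it with some 1 OHC left out. Over all 8 OHCs, 762 genes became at least 2-fold lower with some 1 OHC left out. Of the genes lower in OHCs, 133 (2.21%) lost the call without OHC 3 and 197 (3.28%) with some 1 OHC left out. Leaving out a cell of the lower group can seldom end such a call. With some 1 IHC left out, a cell of their higher group, 1785 (29.7%) lost the call. This share rests on 19 cells and the 77.5% above on 8, so the 2 are not like for like.

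**Figure D1:**
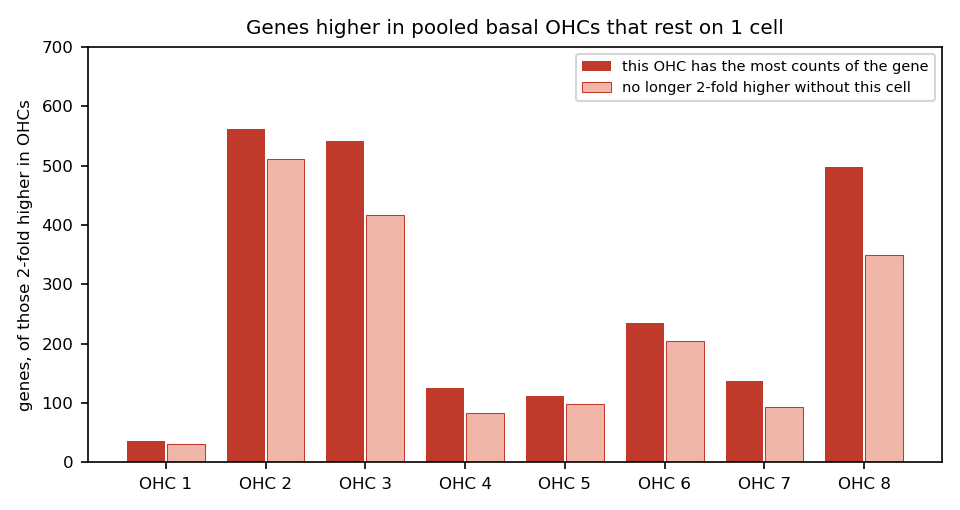
Number of genes (vertical axis) among the 2247 at least 2-fold higher in pooled basal OHCs, for each of the 8 basal OHCs. Dark bars count genes of which that cell has the most counts among the OHCs, and light bars those no longer 2-fold higher without it: OHC 2, OHC 3 and OHC 8 top 561, 542 and 498 genes, and OHC 1 tops 36.

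The OHC markers were higher in basal OHCs mainly through single cells, OHC 3 first. Among all genes tested 23.7% were higher, 63.5% lower and 5.33% retained higher. Of the 12 marker genes, 9 passed the level filter, 6 were at least 2-fold higher and 2 at least 2-fold lower, and 3 (Ocm, Ikzf2 and Bmp3) were retained. Their median difference was 3.19 with all cells, 0.58 without OHC 3 and 1.26 without OHC 6. At 10 CPM or more, OHC 3 held 8 of the 12 markers and OHC 5 held 4, the other 6 OHCs held 1 to 3, and the IHCs held 0 to 6 with a median of 0. In 1 IHC, IHC 4, 6 of the OHC markers reached that level.

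Slc26a5, which encodes prestin, lies on chromosome 5 at 21810655 to 21865604, minus strand, in the GENCODE M21 annotation of GRCm38. Its level was 0 CPM in the lowest OHC, a median of 0.360 and 109.4 CPM in the highest, OHC 3. In the IHCs it was 0 in the lowest and median cell and 1.10 CPM in the highest. OHC 3 was thus the single cell of the 27 above 3 CPM, and 4 of the 8 OHCs had no read of the prestin gene. Pooled, Slc26a5 stood at 34.3 CPM in basal OHCs (95% Poisson interval 31.7 to 36.9) and 0.0608 CPM in basal IHCs (0.0262 to 0.120), a difference of 5.05. Of its OHC counts 98.7% came from OHC 3, and without that cell the difference was 0.58.

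Ocm encodes oncomodulin, a calcium-binding protein of the parvalbumin family that is abundant in OHCs, and lies on chromosome 5 at 144019804 to 144026670. It was read in 7 of the 8 OHCs. Ocm ran from 0 CPM in OHC 1 through a median of 53.8 to 13566 CPM in OHC 3, with 3752 CPM in OHC 5 and 803 CPM in OHC 2. In the IHCs it ran from 0 through a median of 0 to 24.6 CPM in the highest cell. Of the OHCs, 4 lay above every IHC and the other 4 within the IHC range. Pooled, Ocm stood at 4413 CPM in OHCs and 1.30 CPM in IHCs, a difference of 10.91. Without OHC 3 the pooled level was 288 CPM in OHCs and 1.33 CPM in IHCs, a difference of 6.96. Ocm is the OHC marker whose excess was largest without OHC 3.

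Ikzf2 encodes helios, a transcription factor needed for the OHC programme, and Bmp3 encodes a secreted ligand of the BMP family. Ikzf2 ran from 0.501 CPM through a median of 13.03 to 2824 CPM in OHC 3 among the OHCs, and from 0 through 0.403 to 24.4 CPM among the IHCs. Its pooled difference was 8.15 and became 1.32 without OHC 3, which held 99.4% of the OHC counts. Bmp3 ran from 0 through 2.995 to 2292 CPM in OHCs, again highest in OHC 3, and from 0 through 0 to 2.87 CPM in IHCs. Its difference was 9.03 and became 2.60 without OHC 3. Both therefore stayed above 2-fold, at a small fraction of the pooled level.

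The other OHC markers were low or rested on another cell. Strip2, at 444 CPM in OHCs and 47.6 CPM in IHCs, had 85.6% of its OHC counts in OHC 6. Lmod3, an actin filament nucleator, was read in 3 OHCs and stood at 265 CPM in OHC 5 and 38.03 CPM in OHC 3, with a difference of 1.09 that became 0.33 without OHC 3. Lbh differed by 0.40, and by -1.69 without OHC 3. Sri was lower in OHCs, by -1.03. Kcnn2, the SK2 potassium channel of the efferent synapse, stood at 0.946 CPM in OHCs and 6.80 CPM in IHCs, where IHC 4 held 88.3% of the counts. Without IHC 4 its difference was 0.0225. The efferent acetylcholine receptor genes Chrna9 and Chrna10 did not pass the level filter, at 0.149 and 0.299 CPM in basal OHCs and 1.02 and 0.0456 CPM in basal IHCs. None of the 8 genes of the efferent synapse list reached 10 CPM in any basal OHC.

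**Figure D2:**
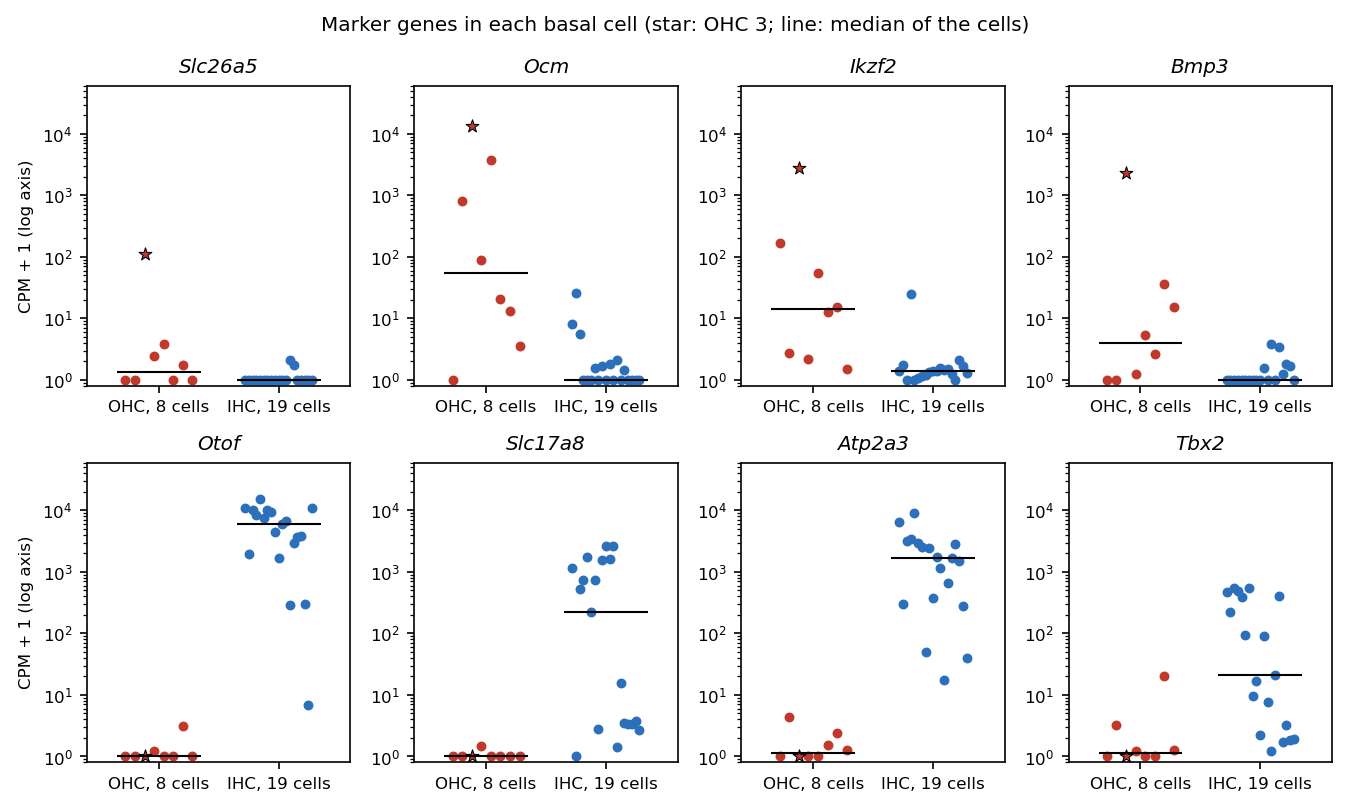
Level of 8 marker genes in each cell as CPM + 1 on a log axis, with the 8 basal OHCs (red) left of the 19 basal IHCs (blue), OHC 3 as a star and black lines at the median of the cells. In Slc26a5, Ikzf2 and Bmp3 OHC 3 stands alone at the top (109.4, 2824 and 2292 CPM), while in Otof no OHC exceeds 2.16 CPM and the IHC median is 5944 CPM.

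The IHC markers were lower in basal OHCs without exception. All 10 passed the filter, all 10 were at least 2-fold lower in OHCs and all 10 were retained, beside 63.5% lower and 44.6% retained lower among all genes tested. Their median difference was -7.95 with all cells and -7.95 without OHC 3. With all cells, and the 2 members that had 0 counts in the OHCs placed at their bound, it was -8.64. At 10 CPM or more, 7 OHCs held none of the 10 and OHC 7 held 1, while the IHCs held 1 to 10 with a median of 5.

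Otof, the gene of otoferlin, the calcium sensor of IHC exocytosis, lies on chromosome 5 at 30367062 to 30461932, minus strand. In the OHCs it ran from 0 CPM through a median of 0 to 2.16 CPM, and in the IHCs from 5.90 CPM through a median of 5944 to 15100 CPM. The groups did not overlap. The 8 OHCs held 4 Otof counts together, 0.199 CPM pooled (0.0543 to 0.510), against 6506 CPM in the IHCs (6492 to 6519), a difference of -12.41. This was the lowest difference of the 9467 genes tested. Atp2a3, which encodes the calcium pump SERCA3 and lies on chromosome 11 at 72961169 to 72993044, was the other gene with no overlap. It ran from 0 through 0.125 to 3.44 CPM in the OHCs and from 16.6 through 1709 to 8968 CPM in the IHCs, a difference of -10.53.

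Slc17a8 encodes VGLUT3, which loads glutamate into IHC synaptic vesicles, and lies on chromosome 10 at 89574020 to 89621253. Its 2 OHC counts were in OHC 4, giving 0.0996 CPM pooled (0.0121 to 0.360) in OHCs against 706 CPM in IHCs (701 to 710). Among the IHCs Slc17a8 ran from 0 through a median of 219 to 2661 CPM, and 11 of the 19 had 10 CPM or more. The other 8 were IHC 2, IHC 8, IHC 13 and IHC 15 to 19, and IHC 2 and IHC 13 lay within the range of the OHCs. Tbx2, a transcription factor needed for IHC identity, ran from 0 through 0.120 to 19.5 CPM in OHCs, highest in OHC 7, and from 0.221 through 19.8 to 556 CPM in IHCs, a difference of -6.10. Prkd1, a kinase gene, differed by -9.12, the transporter gene Slc7a14 by -8.83, the active zone gene Rims2 by -7.06 and the calcium-binding protein gene Cabp2 by -6.87. Kcna10 and Dnajc5b had no count in any basal OHC, and stood at 52.02 and 19.4 CPM in IHCs. Against a floor of 3 counts over the OHC group (0.149 CPM), they were at least 348-fold and at least 130-fold lower in OHCs.

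Genes of the general hair cell list were mostly lower in the basal OHCs too. The list shares Otof with the IHC markers and Chrna9 with the OHC markers. In this list 14 of 18 genes were tested, 1 (Espn) was higher and 11 lower, and 11, Otof among them, were retained lower. Beside these stand 23.7% higher, 63.5% lower and 44.6% retained lower among all genes tested. The median difference of the list was -3.78, and -4.21 without OHC 3, beside -2.65 and -2.83 for all genes tested. At 10 CPM or more, the OHCs held 0 to 4 of the 18 genes with a median of 2, and the IHCs 0 to 14 with a median of 7. The defining markers therefore go with the label in OHC 3 and are low or unread in most of the other 7, which had under 3 CPM of the prestin gene. The name basal OHC is used for all 8 as the labels give it.

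Myo6 encodes myosin VI, a motor at the base of the stereocilia, and Espn encodes espin, which bundles stereocilia actin. Myo6 ran from 0 through 0.721 to 2146 CPM in the OHCs and from 0 through a median of 1357 to 8431 CPM in the IHCs. OHC 3 held 99.6% of the OHC counts and lay above the IHC median, while the next OHC was at 9.78 CPM. The pooled difference was -1.59, and -8.83 without OHC 3. Espn ran from 0 through 2.64 to 2526 CPM in OHCs and from 0 through 3.65 to 636 CPM in IHCs. It was 2.52 higher on the log2 scale in pooled OHCs and turned to -3.81 without OHC 3. For these genes the pooled OHC level comes almost wholly from OHC 3. It lies below the level in that cell, which supplied 30.9% of the OHC counts.

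Pou4f3, a transcription factor needed for hair cell survival, ran from 0 through 0 to 72.1 CPM in OHCs, highest in OHC 5, and from 0 through 244 to 5522 CPM in IHCs, a difference of -6.87. Myo7a, the myosin of the upper tip link end, was low in most cells of both groups, with at most 5.16 CPM in the OHCs and a median of 1.29 CPM and a highest value of 849 CPM in the IHCs. Cib2, a calcium-binding part of the transduction complex, was read in 6 OHCs and ran from 0 through 47.2 to 1144 CPM, highest in OHC 4, against 0.521 through 1100.3 to 11064 CPM in the IHCs. It differed by -2.23. Ptprq, a phosphatase of the hair bundle, had 0 counts in all 8 OHCs and 711 CPM in pooled IHCs, at least 4760-fold lower in OHCs against the same floor.

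Among 17 transcription factor genes tested of 22 listed, 5 were higher and 10 lower, with a median difference of -1.79 that became -2.91 without OHC 3. All genes tested had 23.7% higher and 63.5% lower, with a median of -2.65, and -2.83 without OHC 3. Bhlhe41, a basic helix-loop-helix repressor, had 1975 CPM in OHC 3 and at most 1.003 CPM in the other 7 OHCs, against at most 49.6 CPM in the IHCs. Its difference of 7.01 became -1.94 without OHC 3. Six2, a homeobox gene, had 919 CPM in OHC 3 and at most 6.31 CPM in the other OHCs, and its difference of 4.23 became -3.02. Gata3, a zinc finger factor placed here in the supporting cell list, differed by -0.81, and by -4.29 without OHC 3. In contrast Nr2f2, a nuclear receptor gene, was read in 6 of the 8 OHCs, with no more than 38.3% of its OHC counts in 1 cell, and was retained higher at 1.95. Rorb, a nuclear receptor gene, was among the most abundant transcripts of both groups, at 23428 CPM in OHCs and 17406 CPM in IHCs. Even so it ranged from 0.573 CPM in OHC 2 to 48093 CPM in OHC 4.

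**Figure D3:**
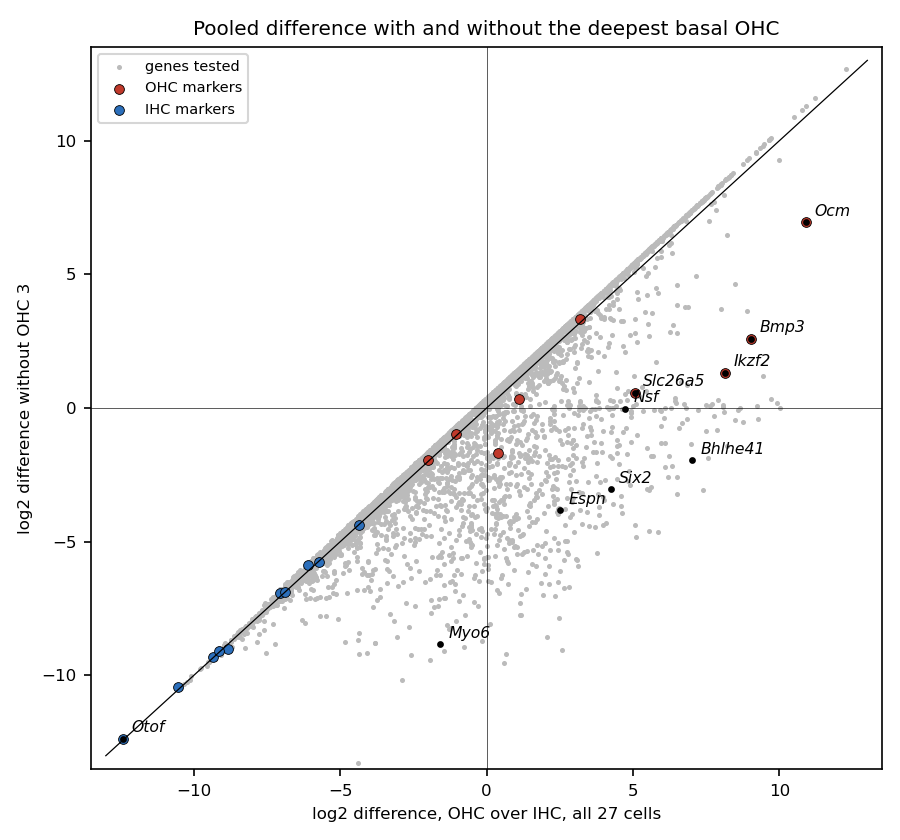
Log2 difference of each of the 9467 genes tested, OHC over IHC, with all 27 cells (horizontal axis) and without OHC 3 (vertical axis), with OHC markers in red, IHC markers in blue and the line of equality. Black points are genes labelled by name. The IHC markers lie close to the line (Otof at -12.41 and -12.36), while Slc26a5 (5.05 and 0.58), Espn (2.52 and -3.81) and Myo6 (-1.59 and -8.83) lie far below it.

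Mechanotransduction and tip link genes were mostly lower in the pooled OHCs, beside 63.5% lower among all genes. Of 14 listed, 11 were tested, 1 (Ank1) was higher, 9 were lower and all 9 of these retained, with a median of -4.06, and -4.42 without OHC 3. All genes tested had 23.7% higher and 44.6% retained lower, with a median of -2.65, and -2.83 without OHC 3. At title numbers up to 100 the median was -0.80, beside -0.96 for all genes, and above 100, where the OHCs are OHC 1 and OHC 2, it was -5.37, beside -3.48. Tmc1, the pore subunit of the transduction channel, had 2582 CPM in OHC 5 and at most 1.45 CPM in the other OHCs, against 0 through 4.85 to 1056 CPM in the IHCs. It differed by -0.59 pooled and by -6.44 without OHC 5, which held 99.4% of its OHC counts. Lhfpl5, which joins the tip link to the channel, stood at 0.299 CPM in OHCs and 675 CPM in IHCs. Pcdh15, the lower tip link strand, stood at 0.996 and 97.1 CPM. Loxhd1, a stereocilia protein gene, stood at 138 CPM in OHC 3, 157 CPM in OHC 5 and 0 in the other OHCs. It differed by -4.06, and by -6.69 without OHC 3. The tip link protein gene Cdh23 had 187 CPM in OHC 2, which held 93.4% of the counts, and differed by -1.92.

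The stereocilia bundle list had 24 genes tested of 32, with 3 higher, 17 lower and 16 retained lower, and a median of -3.68 (-4.16 without OHC 3). All genes tested had 23.7% higher, 63.5% lower and 44.6% retained lower, with a median of -2.65 (-2.83 without OHC 3). The beta-actin gene Actb was the 1 member retained higher, read in all 8 OHCs at 1947 through 16294 to 23354 CPM, and in the IHCs at 180 through 2739 to 33377 CPM, a difference of 1.69. Rdx, which encodes radixin, was higher by 2.07, with 73.4% of its OHC counts in OHC 8. Several members changed place without OHC 3, which held most of their OHC counts. The difference of Pls1, a plastin that bundles actin, was 0.19 and became -3.44, that of Lmo7 was 0.45 and became -3.96, and that of the gamma-actin gene Actg1 was -0.41 and became -4.06. Myo3a, Grxcr1 and Grxcr2 had no count in any OHC and stood at 323, 39.3 and 42.8 CPM in the IHCs.

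In the ribbon synapse list 26 of 29 genes were tested, 4 were higher and 15 lower, and the median was -1.38, and -1.46 without OHC 3. All genes tested had 23.7% higher and 63.5% lower, with a median of -2.65, and -2.83 without OHC 3. The list includes the IHC markers Otof, Slc17a8, Rims2, Cabp2 and Dnajc5b. Beside Otof and Slc17a8, the ribbon gene Ctbp2 was lower by -5.34, though 5 of the 19 IHCs had 10 CPM or more of it. Its exons overlap those of Fgfr2 on the same strand. The presynaptic calcium channel gene Cacna1d had 2699 CPM in OHC 8 and a median of 4.32 CPM over the OHCs, against a median of 9.82 and a highest value of 1796 CPM in the IHCs. It was 0.71 higher pooled and -2.35 without OHC 8, so its direction is that of 1 cell. Nsf, the ATPase that takes SNARE complexes apart, differed by 4.72 and by -0.0205 without OHC 3. The calcium-binding protein gene Cabp1 was higher by 4.52, with 99.8% of its OHC counts in OHC 8. Dnm3, a dynamin gene for membrane scission, was the member retained higher: 3 OHCs (3, 5 and 6) had 9234, 9753 and 7410.2 CPM, and its difference was 4.29, and 2.74 without OHC 3.

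Calcium binding and transport genes had a median close to that of all genes tested. Of 25 listed, 21 were tested, 2 were higher, 13 lower and 12 retained lower, with a median of -2.84. All genes tested had 23.7% higher, 63.5% lower and 44.6% retained lower, with a median of -2.65. Calb2, the calretinin gene, was read in every basal cell: it ran from 10.6 through 161 to 756 CPM in the OHCs and from 13.1 through 212 to 1043 CPM in the IHCs. These ranges overlap almost entirely, and the difference was -0.37. Atp2b1, a plasma membrane calcium pump gene, ran from 0 through 7.32 to 1177 CPM in OHCs, highest in OHC 6, and from 1.75 through 3476 to 22074 CPM in IHCs, a difference of -5.12. The parvalbumin gene Pvalb stood at 77.1 CPM in OHCs and 558 CPM in IHCs, a difference of -2.84. By the median of the cells the direction was the other way, at 109.3 CPM in OHCs and 63.6 CPM in IHCs, and IHC 8 held 55.4% of the IHC counts.

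Potassium channel genes had 14 of 21 tested, 4 higher, 10 lower and 6 retained lower, with a median of -3.51. All genes tested had 23.7% higher, 63.5% lower and 44.6% retained lower, with a median of -2.65. Kcnma1, the BK channel gene, ran from 0 to 117.4 CPM in the OHCs, highest in OHC 7 and OHC 2, and from 0 through 42.5 to 4232 CPM in the IHCs, a difference of -4.14. None of the 4 members that were higher was retained: Kcnk1 had 98.5% of its OHC counts in OHC 4 and Kcna2 had 95.3% in OHC 6.

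Lateral wall and cortical cytoskeleton genes, which build the layer beneath the prestin-bearing membrane, were divided. Of 16 tested, 8 were higher (23.7% among all genes) and 6 lower (63.5%), with a median of 0.74, and 0.39 without OHC 3. The ankyrin gene Ank2 was read in all 8 OHCs, at 11.4 through 424 to 4624 CPM, against 0 through 5.76 to 861 CPM in the IHCs, and was retained higher at 2.05. Ank1 was retained higher at 4.15, from OHC 8 and OHC 2. The spectrin genes Sptb and Sptbn1 were retained lower at -5.47 and -7.06, while Sptan1 differed by -0.12. The adducin genes Add1 and Add2 had 99.3% and 99.7% of their OHC counts in OHC 7 and in OHC 8.

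**Figure D4:**
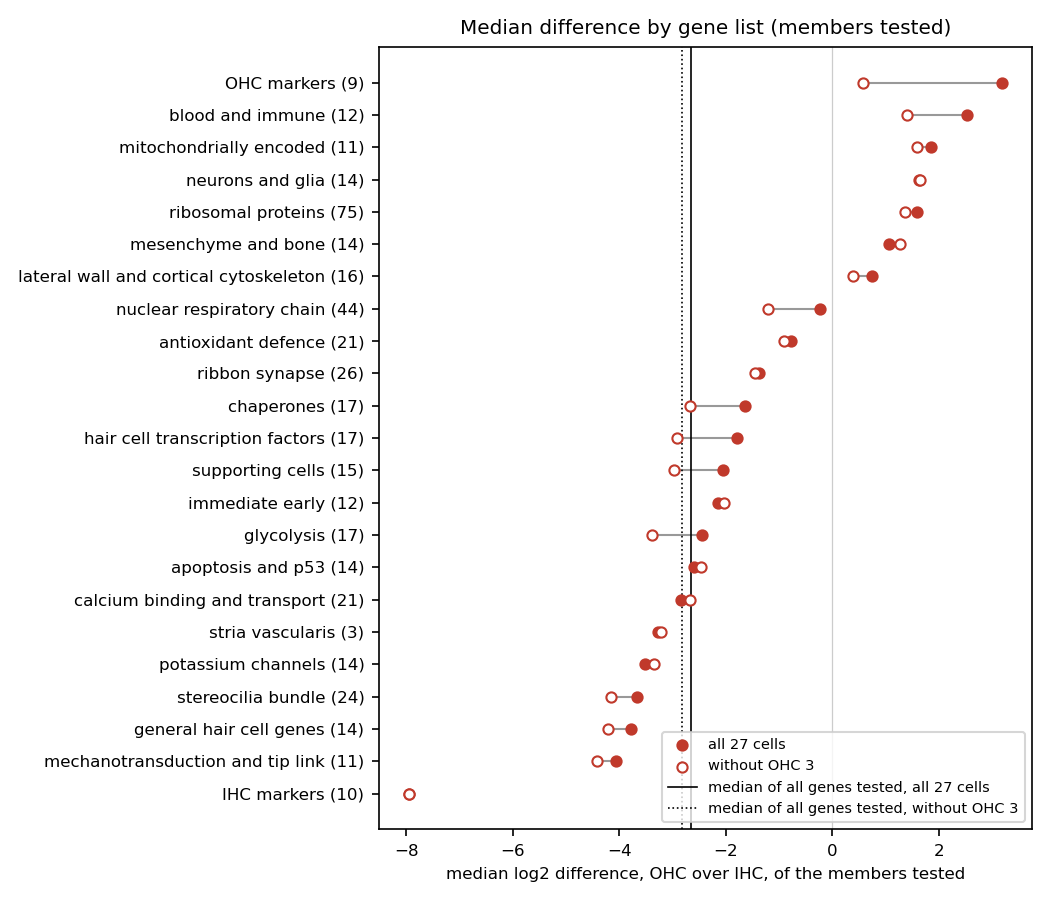
Median log2 difference, OHC over IHC, of the tested members of each gene list with 3 or more tested (numbers in brackets), with all 27 cells (filled) and without OHC 3 (open), beside the median of all genes tested (lines at -2.65 and -2.83). OHC markers lie highest at 3.19 with all cells and at 0.58 without OHC 3, and IHC markers lowest at -7.95 in both.

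Among metabolic and stress genes the mitochondrial and ribosomal lists had medians above 0. The others had medians between -2.60 and -0.23, above the -2.65 of all genes tested. Of all genes tested 23.7% were higher, 63.5% lower and 5.33% retained higher. Of 11 mitochondrially encoded genes tested, 7 were higher and 2 lower, with a median of 1.86 (1.59 without OHC 3). Their summed level ran from 5842 through 19610 to 90480 CPM in the OHCs and from 1250 through 12410 to 68780 CPM in the IHCs, highest in OHC 1. Of 75 ribosomal protein genes tested, 46 were higher, 12 lower and 19 retained higher, with a median of 1.597 (1.37 without OHC 3). Their summed level ran from 10880 through 37210 to 107200 CPM in OHCs and from 2547 through 8593 to 27520 CPM in IHCs. Both kinds of gene have near-identical copies elsewhere in the genome, so their counts are uncertain. Glycolysis had 1 higher and 11 lower of 17 tested (median -2.45), chaperones 2 and 12 of 17 (-1.64), antioxidant defence 6 and 10 of 21 (-0.78), apoptosis and p53 genes 3 and 9 of 14 (-2.60), and nuclear respiratory chain genes 11 and 16 of 44 (-0.23). Immediate early genes, which respond to stimulation and handling, had 5 higher and 7 lower of 12 (-2.15).

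Single members stood out within these lists. Txn1, the cytosolic thioredoxin gene, was 5.62 higher and turned to -2.95 without OHC 3, which held 99.98% of its OHC counts. The chaperone gene Hsp90ab1 was read in 7 OHCs and retained higher at 1.64, at 0 through 3496 to 14447 CPM in OHCs and 25.2 through 808 to 16665 CPM in IHCs. Sod1, the cytosolic superoxide dismutase gene, was at 15952 CPM in OHCs and 6599 CPM in IHCs, 1.27 higher, but did not stay 2-fold different with each cell left out. Hspb1 had 99.9% of its OHC counts in OHC 3.

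Markers of nerve, blood and connective tissue were more often higher than lower in the basal OHCs, and several were read in all 8. Of the neuron and glia genes 14 of 19 were tested, 10 were higher, 1 lower and 6 retained higher, beside 23.7% and 5.33% of all genes. Their summed level ran from 7673 through 16100 to 34000 CPM in the OHCs and from 726 through 2814 to 19750 CPM in the IHCs. The neurofilament gene Nefm ran from 2342 through 6941 to 28844 CPM in OHCs and from 321 through 1556 to 12318 CPM in IHCs, a difference of 2.04. The list did not rest on OHC 3, with a median of 1.62, and 1.66 without that cell.

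Mesenchyme and bone genes had 7 of 14 higher, all 7 retained, and 3 lower, of which 2 were retained, with a median of 1.07 (1.27 without OHC 3) and a summed level of 3745 through 19960 to 46080 CPM in OHCs and 159 through 5247 to 12430 CPM in IHCs. Collagen genes Col1a1 and Col1a2 had at least 1447 and 460 CPM in each OHC and medians of 132 and 3.82 CPM in the IHCs, and differed by 3.49 and 2.92. Blood and immune genes had 9 of 12 higher, 1 lower and 4 retained higher, with a median of 2.53 (1.41 without OHC 3) and a summed level of 4333 through 11270 to 44850 CPM in OHCs and 41.3 through 925 to 24500 CPM in IHCs. The haemoglobin genes Hba-a1 and Hbb-bs were read in all 8 OHCs and differed by 2.46 and 2.52, though near-identical copies make their split uncertain. Supporting cell genes had 3 higher and 10 lower of 15, with a median of -2.06, beside 23.7%, 63.5% and -2.65 for all genes tested. The 3 higher, Prox1, Notch2 and Cdkn1b, were retained, Notch2 at 2.56. The stria vascularis list had 3 genes tested and the endothelium and pericyte list 2. The part of RNA from other cells in the differences above was not tested.

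The genes with the steadiest excess in OHCs were sought by a rule. It asked for reads in at least 50% of the cells of the higher group, 10 CPM there, and 2-fold in the same direction pooled, with equal weight per cell and with each cell left out. It was met by 323 genes higher and 2289 lower. Ranked by the smallest difference that any of these gave, the first 12 higher were Ifngr1, Ocm, Dcn, Mylk, Proca1, Tex2, Nat8l, Ahnak, Tomm40, Ammecr1, Plod1 and Phlda1. Ocm is the OHC marker among these 12. Ifngr1, a receptor subunit for interferon gamma, had 500, 434 and 957 CPM in OHC 3, OHC 5 and OHC 8 and at most 2.16 CPM in the other OHCs, and 21.3 CPM in the highest IHC, IHC 2. It differed by 7.83. Dcn, which encodes the connective tissue proteoglycan decorin, had 577 to 3189 CPM in 4 OHCs (3, 4, 6 and 8) and differed by 7.75. Ahnak, a large scaffold protein gene, was the most evenly spread, with reads in 6 OHCs, 39.5% of the OHC counts in the highest cell and a difference of 5.83. None of the 12 was read in OHC 1, and each was read in 4 to 7 of the 8 OHCs. Among the cells with title numbers above 100 alone, where OHC 1 and OHC 2 are the OHCs, Ifngr1 differed by -0.89 and Tomm40 by -2.45, and Dcn and Tex2 stood near 0 at -0.027 and -0.021.

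The first 12 lower were Otof, Atp2a3, Per3, Mal2, Ptprq, Gnl3l, Slc17a8, Ripor3, Impact, Gdpd1, Jag1 and Hspa2. Beside the IHC markers among them, Mal2, a membrane trafficking gene, had no count in the OHCs and a median of 57.5 and a highest value of 6622 CPM in the IHCs, at least 7930-fold lower in OHCs. Per3, a clock gene, ran from 0 through 0 to 1.15 CPM in OHCs and from 0 through 103.6 to 9957 CPM in IHCs, a difference of -10.42. Jag1, a Notch ligand gene, had no count in the OHCs, and 8 of 19 IHCs had 10 CPM or more of it. Hspa2, a heat shock protein gene, ran up to 4.44 CPM in OHCs and 2271 CPM in IHCs and differed by -9.02. Some of these 12 were patchy in the IHCs as well, with reads in 11 of 19 IHCs for Mal2 and in 12 for Jag1, against 19 for Otof and Atp2a3.

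**Figure D5:**
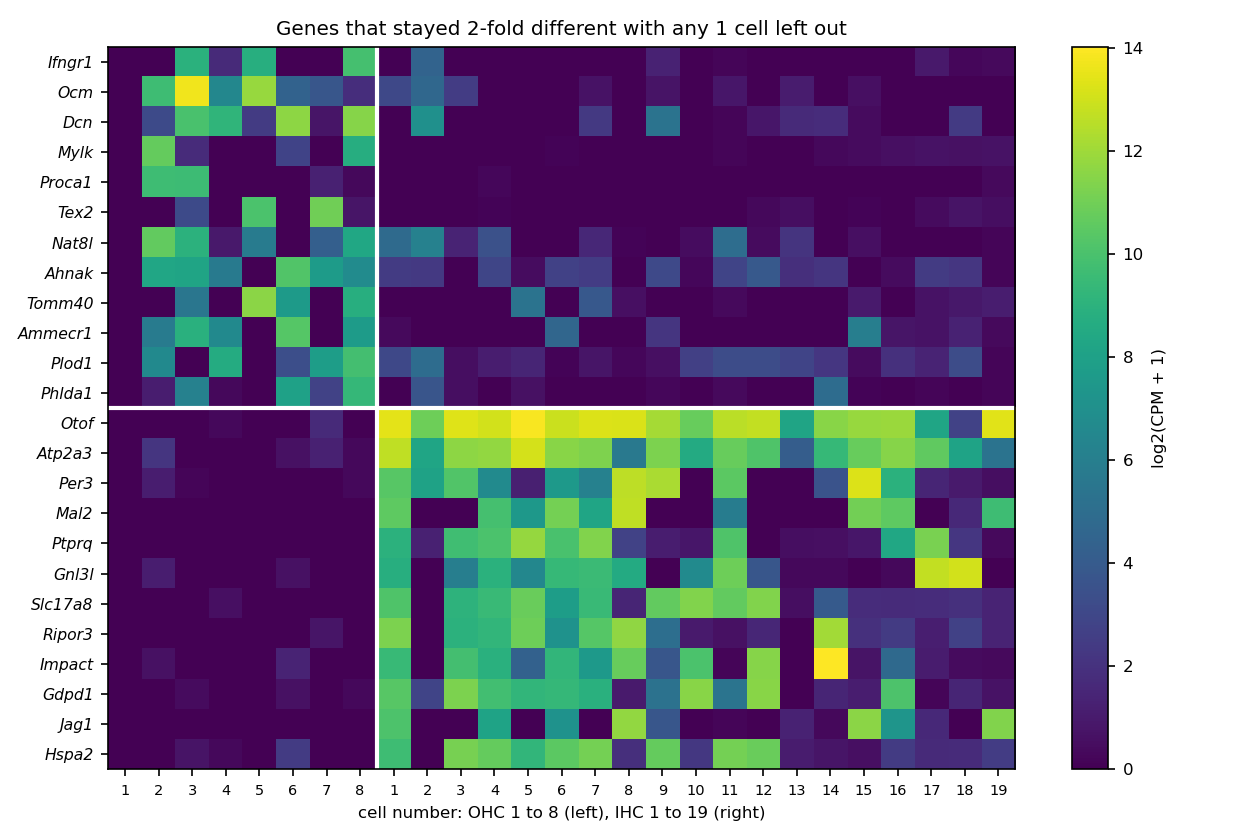
Level of the 24 genes named by the rule, as log2(CPM + 1), in OHC 1 to 8 (left of the white line) and IHC 1 to 19 (right of it), with the 12 higher in OHCs above the 12 lower. OHC 1 shows none of the 12 higher genes, each of them is high in only some OHCs, and Otof is at 5.90 CPM or more in 19 of 19 IHCs.

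The genes with the largest pooled excess were mostly carried by 1 OHC. Acot9, a thioesterase gene, had 24766 CPM in OHC 4 and no count in the other 7 OHCs, and a pooled difference of 12.28 that became -0.044 without OHC 4. Wls, which carries Wnt ligands to the cell surface, made up 26.1% of all counts of OHC 5 (370980 CPM on the scaled axis) and at most 371 CPM elsewhere in the OHCs. It differed by 11.21, and by 3.78 without OHC 5. Samd4 and Hoxb4 had 99.99% of their OHC counts in OHC 8. Rgs2 came from OHC 3 and OHC 6, with 2398 and 7294 CPM. At the other end, Vmn1r214 had all its IHC counts in IHC 18, and its difference of -10.32 became 0.0725 without that cell, while Socs6 stood at 0.448 CPM in OHCs and 1594 CPM in IHCs.

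Set beside the same comparison in the other turns, the basal OHCs had the lowest pooled level of several hair cell genes. Slc26a5 stood at 34.3 CPM in basal OHCs, with 207 CPM in middle and 697 CPM in apical OHCs. Pou4f3 stood at 4.13 CPM in basal OHCs, with 220 CPM in middle and 650 CPM in apical OHCs. Otof stood at 0.199 CPM in basal OHCs, with 25.5 CPM in middle and 213 CPM in apical OHCs. Differences in the same direction recurred for the cell type markers: the median of the OHC markers was 3.19 in the base, 3.48 in the middle and 3.03 in the apex, and that of the IHC markers was -7.95, -4.91 and -5.50. General hair cell genes did not follow this: their median was -3.78 in the base, -0.77 in the middle and 1.22 in the apex. Among the 505 genes retained higher, 11.1% were also 2-fold higher in OHCs in both other turns, beside 5.26% of all genes tested. In the apex alone 25.5% were 2-fold the same way, beside 23.4% of all genes, and 20.8% the other way, beside 31.6%. In the middle turn alone 29.1% went the same way, beside 17% of all genes, and 17.8% the other way, beside 30.7%. Among the 4227 retained lower, 16.9% were 2-fold lower in both, beside 12.5% of all genes tested. Of these 4227, 36.5% were 2-fold lower in the apex, beside 31.6% of all genes. The share that went the other way in the apex was 24.6%, close to the 23.4% of all genes. The base has 8 OHCs, the middle turn 23 and the apex 21, and the part of these numbers in the pattern was not tested.

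Values also differed between the cells with low and high title numbers, where the OHC cells with numbers above 100 are OHC 1 and OHC 2 alone. Within numbers up to 100 (6 OHCs and 12 IHCs) 2119 genes were higher and 2829 lower, with a median difference of -0.96. Within numbers above 100 (2 OHCs and 7 IHCs) 1809 were higher and 7481 lower, with a median of -3.48. The OHC markers had a median of 4.77 in the first set and 0.00 in the second, and the IHC markers of -6.66 and -8.44. The direction of the IHC markers held in both sets. General hair cell genes had a median of -1.21 in the first and -7.83 in the second.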

How the data were processed

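RNA of single hair cells was read on an Illumina HiSeq instrument, per the labels' protocols. The authors deposited 1 table of raw read counts per gene (55335 lines, 139 cells). Trimmomatic, HISAT2 and featureCounts of Subread 1.4.6, with the builds GRCm38 and mm10, are named in the submitters' processing notes. For strandedness, molecular identifiers and multi-mapping reads, the sources used here do not give the handling. Of the 461 genes named by the rule or held by a list, 125 share exonic bases with an opposite-strand gene and 35 with a same-strand gene, and such reads cannot be told apart. Of those described, these are Mylk, Tomm40, Phlda1, Ripor3, Samd4, Ikzf2, Kcnn2, Chrna10, Cacna1d, Kcnma1, Dnajc5b, Bhlhe41, Ank1, Ank2, Sptb, Sptbn1, Add2, Prox1, Cib2, Nr2f2, Dnm3, Kcnk1, Gata3 and Nefm (opposite strand) and Ctbp2, Notch2, Actg1, Add1 and Gata3 (same strand). Gene symbols and positions come from GENCODE M21 (GRCm38), where 54587 identifiers matched with their version and 55154 without. The 181 lines with no symbol held 0.00885% of counts. No 2 columns were identical.

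Counts were summed per group, scaled with TMM over the 6 pooled groups of the series (edgeR 4.0.16; factors 0.7027 for basal OHCs and 0.9637 for basal IHCs) and given as CPM. Cell levels use the factor of their group. Differences are log2 of CPM + 1 ratios, which understates low genes. Genes needed 5 CPM in a basal group. Calls are 2-fold. Intervals are exact Poisson at 95% and, like the floor of 3 counts, cover counting error only. As no label names an animal, no test was run. The procedure was tested on simulated data. Each cell was left out in turn. Alternatives used raw totals, DESeq2 1.42.0 size factors, equal weight or the median of cells, thinning to 2278963 counts (5 OHCs and 19 IHCs remain), title numbers, a minimum of 2000 detected genes, other pseudocounts and filters. The gene lists, fixed genes and naming rule were chosen with earlier results of these data known. The rule named the first 12 retained genes per direction by their smallest difference, the 6 per direction with the largest pooled difference, a fixed set of genes and the 2 highest and 2 lowest members of each list. Other list members are named as examples chosen after their values were seen. Some genes of the lists are not reported here.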

Additional observations from a re-analysis of the deposited data

Results flagged for a closer look

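The values in this paragraph are gaps. A gap is the distance of the highest or the lowest basal OHC from the next, whichever is larger, divided by the range over the 8 OHCs. Gaps above Dixon's 95% critical value for 8 values were found for 9 of the 19 genes examined, and chance alone passes it in about 1 of 20 groups of normally distributed values. These genes were at 0 in several OHCs, so that rate does not apply to them, and a gene read in 1 cell has a gap of 1.0 by construction. They were computed on log2(CPM + 1). The gap was 0.712 for Slc26a5, with OHC 3 highest, 0.886 for Tmc1 and 0.555 for Pou4f3, with OHC 5 highest in both. For Otof it was 0.813, for Tbx2 0.605 and for Chrna10 0.659, each highest in OHC 7. For Chrna9 and Slc17a8, read in OHC 4 alone, it was 1.0, and for Calb1 it was 0.653, again with OHC 4 highest.

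Some genes differed in opposite directions between the base and another turn, which was not tested. Tex2, Nat8l, Tomm40, Samd4 and Rgs2 were higher in basal OHCs than in basal IHCs, but in the apex their differences, OHC over IHC, were -2.54, -2.55, -1.03, -3.18 and -2.06. Kcnn2 was lower in basal OHCs, but differed by 3.02 in the apex and 3.48 in the middle turn. Pvalb and Myo7a were lower in basal OHCs and differed by 1.23 and 1.37 in the apex.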

How the results depend on the processing

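No paired analysis was possible because the basal groups share 1 title number only. Counts of genes 2-fold higher (2247) and lower (6013) were 497 and 579 by the median of the cells. Lower genes numbered 2829 at title numbers up to 100 and 3301 with a 20 CPM filter. The median over all genes (-2.65) was -2.79 without TMM, -2.03 with DESeq2 size factors, -2.30 at equal weight, -0.27 by the median of the cells, -2.83 without OHC 3, -0.96 at title numbers up to 100, -3.48 above 100, -3.58 and -1.32 with pseudocounts of 0.1 and 5, -0.022 with no filter, -2.01 with the 20 CPM filter and -2.94 without OHC 1, OHC 2 and IHC 2, an alternative chosen after seeing the data. The OHC markers (3.19) gave 2.74 without TMM, 4.16 with DESeq2, 3.73 at equal weight, 1.61 by the median of the cells, 4.20 thinned, 0.58 without OHC 3, 4.77 and 0.00 at the lower and higher title numbers, 2.96 with a pseudocount of 5 and 3.58 without those 3 cells. The IHC markers (-7.95) gave -7.54 with DESeq2, -4.92 by the median of the cells, -6.66 and -8.44 at the lower and higher title numbers, and -9.85 and -6.10 with pseudocounts of 0.1 and 5. With each cell left out in turn, genes higher ran from 1907 to 2320, genes lower from 5654 to 6375, the median over all genes from -2.90 to -2.58, OHC markers from 0.58 to 3.69 and IHC markers from -8.31 to -7.69. Signs turned, several of them at values near 0, at title numbers above 100 for Ifngr1 (-0.89), Dcn (-0.027), Tex2 (-0.021), Tomm40 (-2.45), Acot9 (-0.021), Rgs2 (-0.021) and Pvalb (0.58), by the median of the cells for Kcnn2 (0.61) and Pvalb (0.77), and at title numbers up to 100 for Kcnn2 (0.91). With 1 cell left out Acot9 ran from -0.044 to 12.67, Vmn1r214 from -10.52 to 0.0725 and Kcnn2 from -2.37 to 0.0225. The cause was not tested. Of 40 single genes called, 27 stayed 2-fold at title numbers above 100 and 28 by the median of the cells. Of 18 list medians past 2-fold, 7 stayed so at title numbers up to 100, 15 above 100 and 6 by the median of the cells, and the mitochondrial list had 0.27 at title numbers up to 100. In OHC 1, genes under about 10.6 CPM could not be read.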
